A study of Mus musculus with 6 samples.

Results

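The genes described here are the 5 of the TAM system, the ligands Gas6 and Pros1 and the receptor tyrosine kinases Axl, Tyro3 and Mertk. They were selected by gene name from a table of 35275 genes, and each name matched 1 row. The family was taken up because Gas6 was among the transcripts with the largest decrease in these same libraries. Its difference between the groups is therefore given as a description, without a test. RNA was sequenced from NIH3T3 cells, a mouse embryonic fibroblast line, in 3 wild-type libraries and in 3 whose label is NgBR overexpression, called NgBR-labelled here. The latter cells were stably transfected with a pIRES plasmid carrying NgBR, the Nogo-B receptor encoded by Nus1, with an HA tag, and were selected with G418. Both lines were grown in DMEM with penicillin, streptomycin and 10% calf serum. The sources used here name no vector control among these libraries and do not say whether the transfected line is a single clone or whether the replicates were separate cultures. The p-values thus measure only the spread between libraries, which may be technical, and the transfected line cannot be told apart from the transgene.

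TAM receptors bind their ligands at the cell surface, and the ligands act as bridges. Gas6, growth arrest-specific 6, and Pros1, protein S, carry a Gla domain whose glutamates are carboxylated in a vitamin K-dependent reaction and which binds phosphatidylserine on apoptotic cells and other exposed membranes. Gas6 is a ligand of AXL, TYRO3 and MERTK, whereas protein S acts mainly on TYRO3 and MERTK and is also an anticoagulant cofactor in plasma. In fibroblasts, AXL is usually the main receptor of the family, and signalling runs through PI3K, AKT and SRC family kinases to survival, migration and uptake of dead cells. Gas6 itself was first described as a transcript that accumulates in growth-arrested fibroblasts.

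All 5 genes had an entry among the RefSeq promoters of build GRCm38.p6. The 250 bases before the annotated start are shown for 3 of them, because Gas6 is the member that was nearly lost, Pros1 is the other ligand and Axl is the most abundant member. They lie at chr8:13494536-13494785 on the minus strand (Gas6), chr16:62854057-62854306 on the plus strand (Pros1) and chr7:25788734-25788983 on the minus strand (Axl). Each is written 5′ to 3′, and the capitals mark CG dinucleotides.
Gas6: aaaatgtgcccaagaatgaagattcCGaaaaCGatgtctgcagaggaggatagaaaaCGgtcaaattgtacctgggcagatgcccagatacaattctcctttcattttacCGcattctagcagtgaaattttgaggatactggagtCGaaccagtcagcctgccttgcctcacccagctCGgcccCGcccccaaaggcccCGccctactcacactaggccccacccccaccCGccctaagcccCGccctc
Pros1: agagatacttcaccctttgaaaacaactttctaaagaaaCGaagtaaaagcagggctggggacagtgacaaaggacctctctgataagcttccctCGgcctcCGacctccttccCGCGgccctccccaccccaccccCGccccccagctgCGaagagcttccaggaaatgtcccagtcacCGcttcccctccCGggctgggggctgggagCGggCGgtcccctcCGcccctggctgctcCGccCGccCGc
Axl: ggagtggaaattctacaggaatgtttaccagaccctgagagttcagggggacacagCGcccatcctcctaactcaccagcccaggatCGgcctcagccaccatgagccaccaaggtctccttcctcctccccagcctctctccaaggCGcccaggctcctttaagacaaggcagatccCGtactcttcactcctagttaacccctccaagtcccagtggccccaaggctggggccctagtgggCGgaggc
The Gas6 window held 10 CG dinucleotides, the Pros1 window 15 and the Axl window 5. Fewer CG were found in 62.2%, 72.7% and 44.4% of the 32851 mouse windows of the same length. The GC box GGGCGG, read on both strands and itself containing a CG, occurred 4 times before Gas6, 5 times before Pros1 and 1 time before Axl. It occurred in 32.7% of all windows. TATAAA, also read on both strands, was in none of the 3 windows and in 12.4% of all windows. These are matches of letters only, and no binding or methylation was measured.

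The libraries differed in depth. Wild-type libraries held 29515072 to 35511769 counts and the NgBR-labelled libraries 7369961 to 10358381, so that depth runs with the groups. The targeted gene Nus1 was at 187 to 233 CPM, that is counts scaled to library size, in wild type and at 165 to 185 CPM in the NgBR-labelled ones (log2 fold change -0.24, SE 0.21, edgeR adjusted p = 0.786). Counts at mouse Nus1 were thus not raised in the NgBR-labelled libraries, and their lower level was not called. Whether transgene reads were assigned to mouse Nus1 is unknown, so that these counts neither bear out the label nor go against it. Directions below compare the NgBR-labelled libraries with wild type. Wild-type library 2 stood apart from the other wild-type libraries, with a chi-square per gene of 251 and 270 against them, beside 28.9 between those. Among the NgBR-labelled libraries this value was 60.5 to 125, and none stood apart as clearly from the rest of its group. The value is taken on raw counts and grows with depth, so that it does not compare the spread of the groups. Even at lower depth, the closest NgBR-labelled pair, at 60.5, was further apart than the closest wild-type pair, at 28.9. For each library, the Spearman correlation across genes was taken between exonic length and the deviation from the mean of all 6. It was -0.226, 0.242 and -0.299 in wild-type libraries 1 to 3. In NgBR-labelled libraries 1 to 3 it was 0.0684, 0.347 and -0.467. It was thus positive in both libraries numbered 2 and negative in both numbered 3, and NgBR-labelled library 3 had the strongest trend. All 8 fibroblast markers examined were present, with a summed level of 19715 to 23573 CPM in wild type and 20834 to 31304 CPM in the other group. Markers of epithelial and endothelial cells summed to at most 0.982 and 2.1 CPM in any library. The 7 macrophage and other leukocyte markers summed to 13.4 to 15.3 CPM in wild type and 8.97 to 12.7 CPM in the other group. Their defining members Ptprc and Adgre1 (listed as Emr1) were at no more than 0.241 and 0.0301 CPM in any library. The 5 Schwann and neural markers summed to 8.72 to 10.4 CPM in wild type and 10.5 to 23.8 CPM in the other group. EdgeR called 0 of them and DESeq2 1, against 4.74% of all genes with an adjusted p by DESeq2. Map2, named after its values were seen, was at a mean of 2.66 CPM in wild type and 7.98 CPM in the others (log2 fold change 1.58, edgeR adjusted p = 0.0562).

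Gas6 (ENSMUSG00000031451, mm10 chromosome 8, 13465374 to 13494490, minus strand) was the member with the large difference. In wild type, libraries 1 to 3 gave 901, 601 and 875 counts. NgBR-labelled libraries 1 to 3 gave 0, 4 and 2. All 3 wild-type libraries were thus far above all 3 others. At the pooled wild-type rate, the depth of the latter libraries would have given 173, 246 and 255 counts. The 0 counts of NgBR-labelled library 1 allow a level of up to 0.421 CPM, the level of 3 counts there. With every library thinned to the depth of the shallowest, the counts were 222, 145 and 217 in wild type against 0, 3 and 2. The groups were thus as far apart at equal depth.

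On the scale of CPM, Gas6 was at 25.8, 20.3 and 26.3 in wild-type libraries and at 0, 0.395 and 0.191 in the others. Mean levels of 24.1 ± 3.32 and 0.195 ± 0.198 CPM (SD, n = 3 each) resulted, so that 0.81% of the wild-type mean was left. The log2 fold change was -6.78 (SE 0.50). From the pooled counts, 2377 against 6, the wild-type rate was 112 times the other, with an exact 95% interval of 51.5 to 306 that covers counting error only. NgBR-labelled library 2, with the most Gas6 counts of its group, moved the estimate, which was -7.68 without it. The 3′ part of Gas6 shares 34 exonic bases with Tmem255b on the opposite strand, a gene with 0 counts in all 6 libraries. Since RNA was taken from whole cultures, fewer cells with the transcript and less transcript per cell cannot be told apart.

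**Figure D1:**
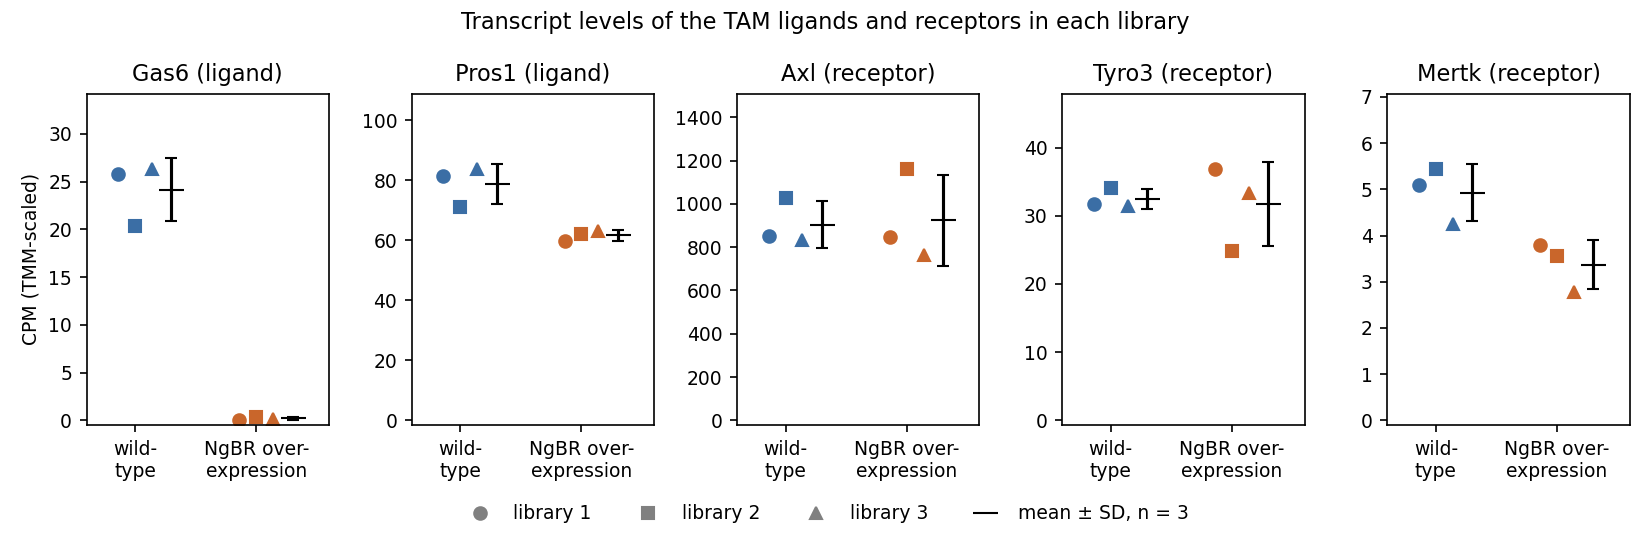
CPM (counts scaled to library size with TMM factors, linear axis from 0) of the 5 TAM genes in the 6 libraries, with symbols for library number and black bars for the mean ± SD of 3 libraries. Gas6 lies between 20.3 and 26.3 CPM in wild type and at or under 0.395 CPM in the NgBR-labelled libraries, whereas Axl and Tyro3 overlap between the groups.

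Pros1 (ENSMUSG00000022912, chromosome 16, 62854307 to 62929346, plus strand), the other ligand, stayed well expressed in every library. Its levels were 81.4, 71.3 and 83.8 CPM in wild type and 59.7, 62.3 and 63.0 CPM in the NgBR-labelled libraries. The groups did not overlap, with means of 78.8 ± 6.64 and 61.7 ± 1.72 CPM (SD, n = 3 each). Among all 12651 tested genes, the ranges did not overlap for 18.6%, and for 9.37% the NgBR-labelled range was the lower one. The log2 fold change of Pros1 was -0.35 (SE 0.19, 95% interval -0.79 to 0.08) with an adjusted p of 0.576 by edgeR's quasi-likelihood test, so that the difference was not called. The interval reaches from a level of 0.578 times the wild-type one to 1.06 times.

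The 2 ligands can be set against each other within a library once counts are divided by exonic length. Gas6 made up 33.7%, 31.4% and 33.5% of the ligand transcripts per length in wild-type libraries 1 to 3, the rest being Pros1. In the other libraries its share was 0%, 1.01% and 0.484%. As the Gas6 counts themselves chose the family, these shares are a description as well. Pros1 was thus the only ligand of the pair above 1 CPM in the NgBR-labelled libraries. Of the other reported TAM ligands, Lgals3, galectin-3, was at 587 ± 15.8 CPM in wild type and 452 ± 139 CPM in the others (SD, n = 3 each; edgeR adjusted p = 0.74). Tub and Tulp1, both Tubby family proteins, were too low to test.

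None of the 3 receptors was called, nor was Pros1. Of these 4 genes, edgeR called 0 and DESeq2 0, and 0 had an unadjusted p under 0.05, against 3.39% of all tested genes called by edgeR in either direction, 4.74% of the 15309 genes with an adjusted p called by DESeq2, and 11.4% of the genes tested by edgeR with an unadjusted p under 0.05. Axl (ENSMUSG00000002602, chromosome 7, 25757273 to 25788705, minus strand), the receptor with the highest affinity for Gas6, was at 850, 1028 and 835 CPM in wild-type libraries. NgBR-labelled libraries 1 to 3 gave 847, 1162 and 764 CPM. These values span the whole wild-type range, and the highest value of each group was that of library 2. Axl averaged 904 ± 107 CPM in wild type and 924 ± 210 CPM in the others (SD, n = 3 each). Its log2 fold change of 0.03 (SE 0.28, 95% interval -0.61 to 0.67, edgeR adjusted p = 0.99) leaves room for levels from 0.656 to 1.59 times the wild-type one. Axl thus stayed within that range while its ligand Gas6 was at under 1% of its wild-type level.

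Tyro3 (ENSMUSG00000027298, chromosome 2, 119797733 to 119818104, plus strand), the receptor best known from the nervous system, was at 31.8, 34.1 and 31.5 CPM in wild type. In the NgBR-labelled libraries it was at 36.9, 24.9 and 33.3 CPM, which spans the whole wild-type range. The log2 fold change was -0.03 (SE 0.22, 95% interval -0.53 to 0.47, edgeR adjusted p = 0.986). The signs of the Axl and Tyro3 estimates turned when single libraries were left out, to -0.17 for Axl and 0.11 for Tyro3 without NgBR-labelled library 2. Neither gene therefore had a settled direction.

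Mertk (ENSMUSG00000014361, chromosome 2, 128698956 to 128802894, plus strand), the receptor through which macrophages clear apoptotic cells, was the least abundant member in wild type. Its counts were 178, 161 and 141 in wild type and 27, 36 and 29 in the other libraries. These correspond to 5.09, 5.44 and 4.24 CPM and to 3.79, 3.56 and 2.77 CPM. As for Pros1, all 3 values of the NgBR-labelled group lay under all 3 wild-type values, which held for 9.37% of all tested genes. The means of 4.93 ± 0.618 and 3.37 ± 0.534 CPM (SD, n = 3 each) correspond to a difference of -0.55 on the log2 scale (SE 0.29, 95% interval -1.21 to 0.11, edgeR adjusted p = 0.553). The NgBR-labelled group held 92 Mertk counts in all, and the interval, from 0.432 to 1.08 times the wild-type level, includes no difference. Of the 3 leukocyte markers that could be tested, Cd14 was at a mean of 10.2 CPM in wild type and 6.85 CPM there, Cd68 at 2.23 and 2.31 CPM and Csf1r at 1.03 and 1.16 CPM, and edgeR called 0 of them. Their part in the Mertk values was not tested.

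Per kilobase of exons, the order of the members in wild type was Axl, Pros1, Gas6, Tyro3 and Mertk. Their levels were 180 ± 21.3, 19.3 ± 1.62, 9.47 ± 1.3, 5.23 ± 0.229 and 1.14 ± 0.143 CPM per kilobase (SD, n = 3 each). No neighbours in this order overlapped. The median over 12589 tested genes with a known length was 6.15 CPM per kilobase, and Axl ranked 202nd among them. Gas6 ranked 4784th in wild type. In the NgBR-labelled libraries the order was Axl (184 ± 41.7), Pros1 (15.1 ± 0.42), Tyro3 (5.11 ± 0.992), Mertk (0.777 ± 0.123) and Gas6 (0.0767 ± 0.0776 CPM per kilobase), again without overlap between neighbours. Gas6 was thus last among the 5 and at rank 12452 of the 12589 genes, while Axl was at rank 206.

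**Figure D2:**
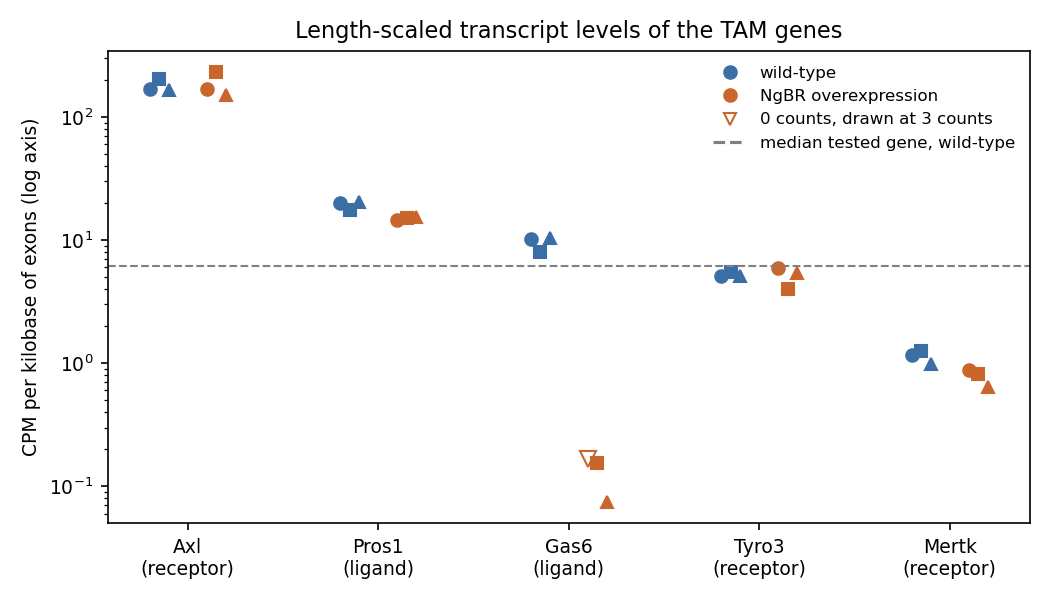
Length-scaled levels of the 5 TAM genes (CPM per kilobase of exons, log axis) in each library, with the median tested gene in wild type as a dashed line and a library with 0 counts drawn as an open triangle at the level of 3 counts. Axl lies far above the median in both groups, and Gas6 goes from above the median in wild type to below every other member in the NgBR-labelled libraries.

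Axl made up nearly all receptor transcripts in both groups. It accounted for 96.4%, 96.8% and 96.5% of the receptor transcripts per length in wild-type libraries 1 to 3. In the other libraries its share was 96.1%, 97.9% and 96.2%, which spans the wild-type values. The difference of the means was 0.185 percentage points, with p = 1.0 in a two-sided exact permutation test over the 6 libraries, whose smallest possible p is 0.1 and which therefore could not reach 0.05. Without NgBR-labelled library 2 the difference was -0.415 percentage points, and the exact permutation p was then that smallest value, 0.1. Mertk took 0.67%, 0.595% and 0.569% of the receptor transcripts in wild type and 0.499%, 0.348% and 0.405% in the other group. These shares did not overlap and were not tested. The CPM ranges of Mertk did not overlap either, which held in the lower direction for 9.37% of all tested genes. Per length, there were 5.83, 8.3 and 5.58 receptor transcripts for each ligand transcript in wild type and 11.98, 15.3 and 10.2 in the others. That ratio contains the Gas6 counts and is a description too.

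No called difference was found among the genes next to Gas6 on chromosome 8. Of the genes within 250 kb, 4 were tested. Rasa3, a RAS GTPase-activating protein gene 72.5 kb away on the upstream side, was at 121 ± 0.357 CPM in wild type and 114 ± 28.6 CPM in the others. Tfdp1, the E2F partner gene, lies 86.9 kb away on the downstream side and was at 112 ± 34.7 and 136 ± 32.3 CPM. Tmco3 was at 26.0 ± 5.15 and 25.1 ± 2.09 CPM, and Dcun1d2 at 15.8 ± 0.966 and 14.8 ± 2.76 CPM (SD, n = 3 each). Their log2 fold changes lay between -0.09 and 0.28, with 0 called by edgeR, 0 by DESeq2 and 0 at an unadjusted p under 0.05. Over all genes these shares were 3.39%, 4.74% and 11.4%, so that 0 of 4 genes is near the background. Within the same distance, 3 genes were tested around Pros1, 8 around Axl, 6 around Mertk and 9 around Tyro3. The same shares are their background. The only one of them called by edgeR was Gm26707, a long noncoding RNA gene near Axl. Its log2 fold change was 2.64 (edgeR adjusted p = 0.0295), and DESeq2 called it too. The call rests on few counts, 13 in all in wild type and 24 in the others. These correspond to 0.134 ± 0.0402 and 0.865 ± 0.114 CPM (SD, n = 3 each). DESeq2 also called Gm14005, a long noncoding RNA gene near Mertk, at 2.53 ± 0.574 CPM in wild type and 6.70 ± 2.67 CPM in the others (SD, n = 3 each; log2 fold change 1.40, edgeR adjusted p = 0.0922). Both were named after their values were seen.

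**Figure D3:**
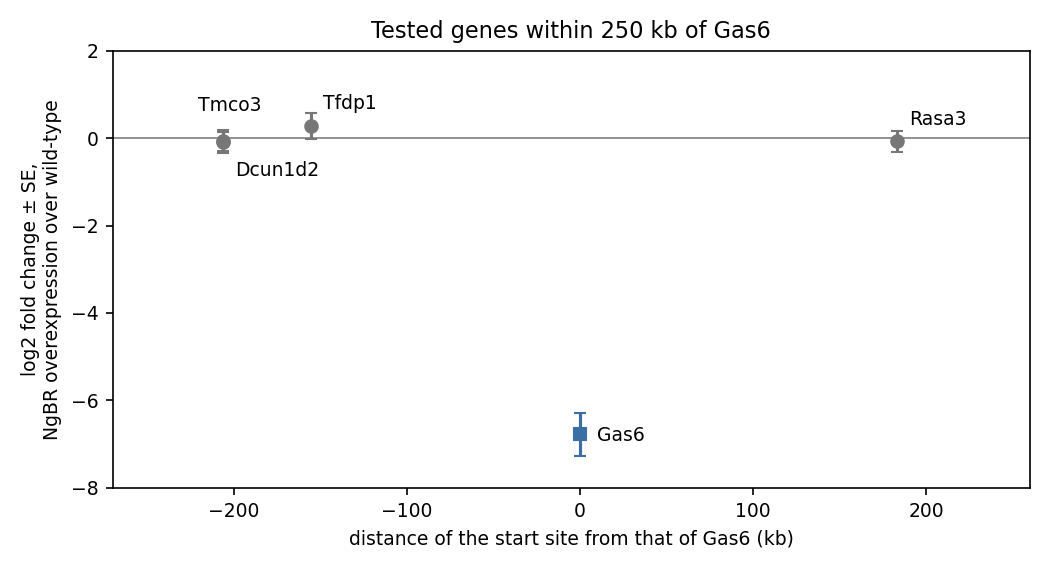
Log2 fold change (NgBR overexpression over wild-type, points, with SE as bars) of Gas6 and the 4 tested genes within 250 kb, against the distance of their start sites from that of Gas6 in kilobases, positive towards higher coordinates. Gas6 stands at -6.78, and the 4 neighbours lie between -0.09 and 0.28.

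The profiles of other genes were set beside that of Gas6 by the root mean square difference of log2 CPM (prior count 2), each profile centred on its own mean over the 6 libraries. Among 10032 tested genes with a mean of at least 5 CPM, the most alike were Phactr2, a phosphatase and actin regulator, and Dapk1, a death-associated protein kinase. Their differences from Gas6 were 0.49 and 0.63 on the log2 scale, against a median of 3.41 over all genes compared. Next came Ndn, Epb4.1 and Slc6a15 at 0.75, 0.75 and 0.82, all 3 with 0 counts in the NgBR-labelled libraries. Phactr2 had 5 counts there in all and Dapk1 10. This likeness was picked on the same counts and carries no test. For Axl, the closest profiles were those of Spg20, Lims1 and Mpp5, at 0.03, 0.04 and 0.04 against a median of 0.37, and their group means also differed little.

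The genes that serve the TAM system were examined as 10 lists with 101 genes, of which 80 were tested. EdgeR called 1 of the 80, or 1.25%, against 3.39% of all tested genes, and 11 of the 80 had an unadjusted p under 0.05, against 11.4% of all tested genes. DESeq2 called 4, against its share of 4.74% over all genes, so that neither count is far from the background. The same 3.39%, 11.4% and 4.74% are the background for the counts of each list below. The median log2 fold change over the 80 was 0.03, beside -0.01 over all tested genes, with 43 positive and 37 negative values.

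That gene was Vav3, a guanine nucleotide exchange factor that acts downstream of receptor tyrosine kinases. It fell from 6.04, 5.34 and 6.11 CPM in wild type to 1.54, 1.88 and 1.05 CPM, with no overlap (log2 fold change -1.97, SE 0.33, edgeR adjusted p = 0.0121). Vav3 belongs to the list of signalling and engulfment adaptors, where edgeR called 1 of 25 tested genes lower and 0 higher. In that list 17 log2 fold changes were positive and 8 negative, with a median of 0.09. The edgeR call was lost without wild-type library 1 (adjusted p = 0.0642), wild-type library 3 (0.0549) or NgBR-labelled library 1 (0.0607). The more abundant members Pik3r1, Akt1 and Rac1, which encode a PI3K subunit, a survival kinase and the GTPase of phagocytic cups, were not called. Rac1 was at 278 ± 62.5 CPM in wild type and 365 ± 49.4 CPM in the others, and Akt1 at 283 ± 97.6 and 247 ± 42.1 CPM (SD, n = 3 each). Bcar1, the adaptor p130Cas, was named after its values were seen. It was at 94.6 ± 6.27 and 147 ± 7.92 CPM (log2 fold change 0.64, edgeR adjusted p = 0.171), and DESeq2 called it (adjusted p = 0.0381).

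Of the 6 tested genes of the vitamin K cycle, edgeR and DESeq2 called 0, with 0 at an unadjusted p under 0.05. Ggcx, the carboxylase that modifies the Gla domain, was at 51.1 ± 8.52 CPM in wild type and 41.4 ± 12.3 CPM in the others. Vkorc1l1, which recycles vitamin K, was at 36.7 ± 2.07 and 37.4 ± 5.64 CPM (SD, n = 3 each). Calu, calumenin, an inhibitor of the carboxylase, was at 800 ± 102 and 754 ± 33 CPM. Nqo1, a quinone reductase, had a log2 fold change of 0.71 (SE 0.56), and it was lowest in library 2 of each group. Vkorc1, with 5 counts in wild type and 2 in the others, was not tested. It shares 401 exonic bases with Gm21974 on the same strand, a gene with 0 counts, and no source used here says how reads in the shared part were assigned. Among 12 other vitamin K-dependent proteins, 3 were tested and 0 called by either tool. The abundant one was Prrg1, a transmembrane Gla protein, at 24.4 ± 3.94 and 32.1 ± 2.99 CPM. Mgp, matrix Gla protein, was at 2.04 ± 1.04 and 1.22 ± 0.629 CPM. The clotting factor genes F2, F7, F9, F10 and Proc were at or under 0.229 CPM in every library.

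Phosphatidylserine can also be read by other bridges and receptors. Of 15 such genes 8 were tested, with 4 positive and 4 negative and a median log2 fold change of 0.00. Over all genes, edgeR called 3.39%, 11.4% had an unadjusted p under 0.05, and DESeq2 called 4.74%. In this list edgeR called 0, 3 had an unadjusted p under 0.05, and DESeq2 called 2. Those 2 were Itgb3, the integrin subunit beta-3, and Edil3, a secreted bridge to alpha-v integrins, both named after their values were seen. Itgb3 was at 7.23 ± 0.578 CPM in wild type and 19.2 ± 10.6 CPM in the others, where library 2 reached 31.3 CPM (log2 fold change 1.41, edgeR adjusted p = 0.0883, DESeq2 adjusted p = 0.0108), and its log2 fold change was 0.85 without that library. Edil3 was at 5.45 ± 0.932 and 11.4 ± 3.92 CPM (log2 fold change 1.06, edgeR adjusted p = 0.14, DESeq2 adjusted p = 0.0448). Mfge8, the milk fat globule bridge to the same integrins, was at 189 ± 17.2 and 176 ± 21.1 CPM. Lrp1, an endocytic receptor, was at 3099 ± 994 and 2427 ± 1585 CPM, and Itgav, integrin alpha-v, at 178 ± 33.2 and 266 ± 99.3 CPM (SD, n = 3 each). The phosphatidylserine receptor genes Timd4 and Havcr1 had 0 counts in all 6 libraries.

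Phosphatidylserine exposure depends on scramblases and flippases, of which 8 of 10 were tested and 0 called by edgeR or DESeq2, with 1 at an unadjusted p under 0.05. Ano6, a scramblase, was at 176 ± 17.8 and 220 ± 44.7 CPM, and the flippase gene Atp11a at 120 ± 8.86 and 78.9 ± 27.8 CPM. Its relative Atp11b was at 68.9 ± 10.2 and 105 ± 33.8 CPM, so that the 2 flippases differed in opposite directions without a call. Shedding of TAM receptors is carried out by the proteases ADAM10 and ADAM17. Adam10 was at 122 ± 12.2 and 138 ± 19.0 CPM and Adam17 at 105 ± 1.34 and 94.7 ± 9.37 CPM (SD, n = 3 each). EdgeR and DESeq2 called 0 of the 5 genes of that list, and 2 had an unadjusted p under 0.05, against 11.4% of all tested genes. Timp3, their inhibitor in the matrix, was at 267, 885 and 264 CPM in wild type and at 215, 197 and 154 CPM in the others. Its log2 fold change of -1.32 was -0.49 without wild-type library 2, and edgeR called it when no filter on low counts was applied (adjusted p = 0.0316). Rhbdf2, an iRhom that brings ADAM17 to the cell surface, was named after its values were seen. It was at 21.8 ± 2.67 CPM in wild type and 12.1 ± 4.16 CPM in the others (SD, n = 3 each; log2 fold change -0.85, edgeR adjusted p = 0.226). EdgeR called it without both libraries numbered 2 (log2 fold change -1.16, adjusted p = 0.0349).

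TAM signalling is known to limit innate responses through SOCS and TWIST proteins. Of 9 tested genes of that feedback edgeR and DESeq2 called 0, with 1 at an unadjusted p under 0.05 and a median log2 fold change of -0.12. Socs3 was at 62.7 ± 3.6 and 59.9 ± 16.6 CPM, Twist1 at 53.1 ± 6.52 and 57.5 ± 11.02 CPM, and the interferon receptor gene Ifnar1 at 96.5 ± 7.28 and 99.3 ± 35.5 CPM (SD, n = 3 each). The growth arrest-specific genes, cloned like Gas6 from arrested fibroblasts or named after such genes, gave 0 calls among 7 tested by edgeR and DESeq2, with 1 at an unadjusted p under 0.05. Gas1, a surface protein that holds cells in arrest, was at 480 ± 120 and 501 ± 69.2 CPM. Pmp22, also known as Gas3, was at 89.8 ± 14.6 and 73.2 ± 17.9 CPM, and the noncoding Gas5 at 122 ± 16.4 and 106 ± 68.6 CPM. Gas7 was at 312 ± 73.2 and 515 ± 224 CPM (SD, n = 3 each). The low level of Gas6 was thus not accompanied by a called change of the other genes of that name.

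Receptor tyrosine kinases that pair with AXL were likewise without a call, 0 of 8 by edgeR or DESeq2 and 0 at an unadjusted p under 0.05. Pdgfra, the receptor for PDGF-A, was at 950 ± 53.8 CPM in wild type and 643 ± 189 CPM in the others (log2 fold change -0.56, edgeR adjusted p = 0.536). Fgfr1 was at 471 ± 31.5 and 544 ± 115 CPM and Pdgfrb at 232 ± 24.7 and 214 ± 46.4 CPM (SD, n = 3 each). Igf1r was at 145, 353 and 82.1 CPM in NgBR-labelled libraries 1 to 3, and its log2 fold change of 0.58 turned to -0.20 without the second of these.

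**Figure D4:**
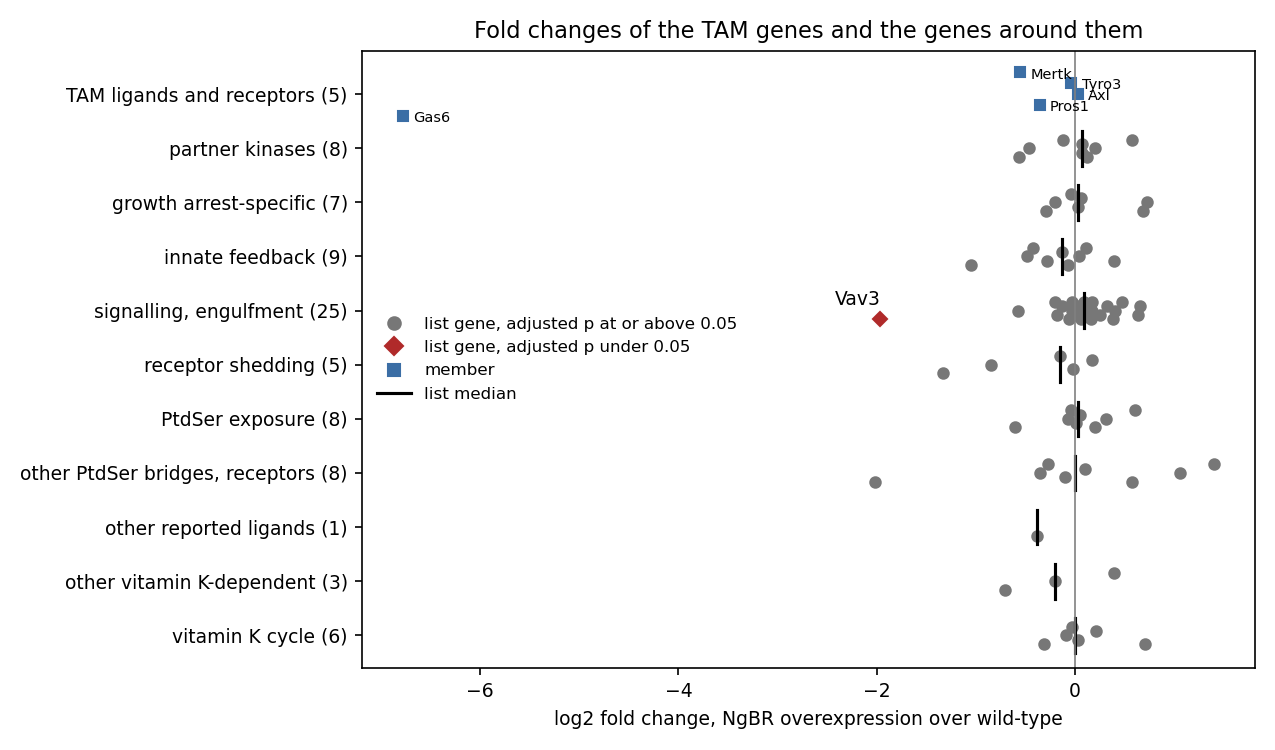
Log2 fold change (NgBR overexpression over wild-type, horizontal axis) of each tested gene of the 10 lists, with the number tested in brackets, black lines for list medians and blue squares for the TAM genes. Gas6 lies at -6.78, the other 4 TAM genes lie between -0.55 and 0.03, and Vav3 is the only list gene with an adjusted p under 0.05.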

How the data were processed

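RNA was measured in 6 libraries, 3 per group, from 1.5 micrograms of total RNA each with a SMARTer kit, per the labels' protocols. The authors deposited raw counts per gene. HISAT2 2.0.5, featureCounts 1.5.0-p3, DESeq2 and build mm10 are named in the submitters' processing notes; no source used here gives the annotation release or strand setting, so reads of overlapping or antisense genes cannot be told apart. Positions and exonic lengths came from GENCODE M21 (GRCm38), where 97.8% of the gene identifiers were found. The table had 0 columns of other samples.

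The quasi-likelihood F test of edgeR 4.0.16 (R 4.3.3) was fitted to all 12651 genes kept by filterByExpr, with TMM factors and no covariate, and p-values were adjusted by Benjamini-Hochberg over all of them. Genes with an adjusted p under 0.05 were called. All 5 members passed the filter. The SE is the log2 fold change divided by the square root of F. CPM were computed on TMM-scaled totals. The fit was tested on simulated data. It called 14 of 100 genes changed 2-fold and 88 of 99 changed 4-fold, with 0 of wrong sign, and 7 unchanged genes. Most 2-fold differences were thus missed, so that a gene without a call may still differ by that much. Intervals of the fitted fold changes include the spread between libraries. The interval of the pooled Gas6 counts and the floors cover only counting error, because PCR copies could not be told from separate molecules.

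The values of 1 list gene are not reported here. The members, lists and tests were chosen with earlier results of these data known. Named were the members, Nus1, up to 4 genes per list (called genes first, then the most abundant), and the genes most like Gas6 (5) and Axl (3). Alternatives were DESeq2 1.42.0, limma-voom (limma 3.58.1), RLE or no composition factors, no filter, at least 1 CPM in 3 libraries, the replicate number as a block, thinning, and leaving out each library or both numbered 2.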

Additional observations from a re-analysis of the deposited data

How the results depend on the processing

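Over 15 alternative fits of the whole table, Gas6, Pros1 and Mertk were lower in the NgBR-labelled libraries in all 15. These fits reuse the same libraries, and the CPM ranges of Gas6, Pros1 and Mertk did not overlap between the groups. Leaving out libraries could thus hardly turn their signs, and the count of 15 is no further support for a difference. Pros1, Axl, Mertk and Tyro3 were called in 0 of the fits. The log2 fold change of Gas6 was -7.78 without both libraries numbered 2, and between -7.68 and -6.35 without single libraries. That of Pros1 was between -0.42 and -0.31 and that of Mertk between -0.65 and -0.42 without single libraries. Axl turned to -0.020 with no filter and -0.067 without both libraries numbered 2, and lay between -0.17 and 0.15 without single libraries. Tyro3 turned to 0.016 with thinning and 0.15 without both libraries numbered 2, with a range of -0.16 to 0.11. Igf1r turned to -0.16 without both libraries numbered 2 and ranged from -0.20 to 0.94. The Axl share of receptor transcripts differed by -0.415 to 0.507 percentage points. The 429 calls over all genes became 726 by DESeq2, 688 with no filter and 225 to 374 without single libraries. The 1 call in the pathway lists became 4, 3 and 0 to 1, and 2 without both libraries numbered 2. The cause of these shifts was not tested.

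With the replicate number as a block, 719 genes were called over all and 3 in the lists, among them Vav3 and Itgb3 (adjusted p = 0.0278). Deviations of same-numbered libraries were correlated at 0.0147, 0.341 and 0.434, and those of differently numbered ones at -0.399 to 0.189. The libraries numbered 2 and those numbered 3 were thus more alike by number than any differently numbered ones. Those numbered 1 were not. Whether the numbers pair the samples is not settled by these values, and the main fit used no pairing. In depth, 3 counts correspond to between 0.286 and 0.421 CPM in an NgBR-labelled library.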
